A study of Mus musculus with 3 samples.

Results

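The genes described here are 36 transcripts of the cell division cycle, 14 of DNA replication (the S set) and 22 of the passage through G2 and mitosis (the G2M set), of the 22954 genes listed for each cell. The S set holds Mcm2, Mcm3, Mcm4, Mcm5, Mcm6, Mcm7, Pcna, Tyms, Rrm1, Rrm2, Gins2, Cdc6, Uhrf1 and Clspn. The G2M set holds Mki67, Top2a, Birc5, Ube2c, Cdk1, Ccna2, Ccnb1, Ccnb2, Cdc20, Cenpa, Cenpe, Cenpf, Aurka, Aurkb, Bub1, Tpx2, Nusap1, Plk1, Kif11, Kif23, Hmmr and Cks2. They were picked by name as known genes of the 2 phases, not by their values here. All were followed in 19619 lung cells of 3 wild-type (WT) female C57BL6/J mice, 1 mouse for each library. All 3 mice received a nominal 13 Gy to the whole thorax, and their lungs were taken 5 months later. For its thorax setup the study lists given doses as a range, which reaches higher for the conventional than for the ultra-high dose rate. The dose given to each of these 3 mice is not stated. CONV was irradiated at a conventional dose rate and FLASH at an ultra-high dose rate. CONV AsiDNA was irradiated as CONV was and also received AsiDNA, a short DNA duplex that mimics a broken DNA end, at 100 mg/kg on each of 2 days and at 200 mg/kg on the third day, when it was irradiated. No non-irradiated lung was analysed here, so nothing below compares an irradiated with a healthy lung. With 1 mouse for each condition no difference between conditions can be tested, and each value describes 1 library. Where 3 values follow one another they stand in the order CONV, CONV AsiDNA, FLASH.

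A dividing cell switches on its cycle genes in order. Cyclin-dependent kinases release the E2F factors, which drive the replication genes, while the genes of G2 and mitosis are read later, many of them through CCAAT boxes and through short elements called CHR that recruit the DREAM and MuvB complexes. In adult lung most cells rest, and conventional dendritic cells, T cells and alveolar macrophages are known to renew in part by local division. The arrest of the cycle after DNA damage runs through p53 and its target Cdkn1a (p21), an arrest that the study followed under AsiDNA in other experiments.

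The 36 genes lie on 16 chromosomes, with 6 on chromosome 2. RefSeq promoter windows of GRCm38.p6, from 250 bases before to 50 bases after the transcription start, were at hand for 31 of them, 12 of the S set and 19 of the G2M set. An E2F match (TTTCCCGC, TTTGGCGC, TTTCGCGC or TTTGCCGC, on either strand) was present in 6 of 12 S promoters and in 1 of 19 G2M promoters, that of Cdk1, and in 2.32% of all 27025 promoters of the table. A CHR match (TTTGAA, either strand) was present in 13 of 19 G2M promoters and in 1 of 12 S promoters, that of Mcm2, against 18.1% of all promoters. A CCAAT match on either strand was common to both sets, with 10 of 12 and 17 of 19, against 37.9% of all promoters. The motifs were chosen with these data known, and a match describes letters and not a bound site. The following 5 promoters are shown because they span the range: Mcm3 is an S promoter with E2F and CCAAT matches, Cdk1 carries all 3 motifs, Ccnb2 and Top2a carry CHR and CCAAT matches, and Cks2, whose RNA was found widely, at a low level, outside dividing cells, carries CCAAT matches only. Capitals mark every match, no matches of different motifs share a base in these 5, and each run reads 5′ to 3′ on the strand of the gene.
Mcm3: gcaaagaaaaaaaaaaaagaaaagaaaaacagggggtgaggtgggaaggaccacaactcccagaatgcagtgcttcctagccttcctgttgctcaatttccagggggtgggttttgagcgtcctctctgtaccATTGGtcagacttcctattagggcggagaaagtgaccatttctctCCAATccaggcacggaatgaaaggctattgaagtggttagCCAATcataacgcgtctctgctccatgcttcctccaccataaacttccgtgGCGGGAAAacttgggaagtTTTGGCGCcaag
Cdk1: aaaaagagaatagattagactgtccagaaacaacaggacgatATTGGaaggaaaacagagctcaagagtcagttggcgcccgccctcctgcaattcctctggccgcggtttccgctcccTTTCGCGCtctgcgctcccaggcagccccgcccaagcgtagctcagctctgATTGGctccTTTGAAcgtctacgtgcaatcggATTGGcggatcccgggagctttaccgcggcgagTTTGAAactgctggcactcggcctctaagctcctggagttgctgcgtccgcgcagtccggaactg
Ccnb2: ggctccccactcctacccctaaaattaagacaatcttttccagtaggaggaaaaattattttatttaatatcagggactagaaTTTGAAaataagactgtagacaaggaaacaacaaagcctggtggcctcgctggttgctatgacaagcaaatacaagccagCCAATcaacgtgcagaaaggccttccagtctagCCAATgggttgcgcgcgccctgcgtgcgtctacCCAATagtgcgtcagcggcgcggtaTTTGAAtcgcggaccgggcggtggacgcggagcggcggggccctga
Top2a: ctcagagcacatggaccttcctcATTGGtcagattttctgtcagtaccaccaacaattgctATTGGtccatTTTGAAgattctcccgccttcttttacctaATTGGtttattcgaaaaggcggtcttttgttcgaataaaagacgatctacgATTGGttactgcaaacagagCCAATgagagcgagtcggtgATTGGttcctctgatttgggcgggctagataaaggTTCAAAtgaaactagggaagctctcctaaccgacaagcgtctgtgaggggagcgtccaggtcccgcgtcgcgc
Cks2: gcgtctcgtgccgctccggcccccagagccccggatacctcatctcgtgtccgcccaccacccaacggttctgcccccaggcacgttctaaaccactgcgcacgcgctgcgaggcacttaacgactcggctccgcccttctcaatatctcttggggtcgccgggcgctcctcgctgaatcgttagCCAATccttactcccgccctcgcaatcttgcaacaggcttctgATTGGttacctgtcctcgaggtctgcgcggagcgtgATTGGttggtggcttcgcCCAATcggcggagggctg
In GRCm38.p6 these windows are chr1:20820263-20820562 for Mcm3, chr10:69352863-69353162 for Cdk1, chr9:70421505-70421804 for Ccnb2 and chr11:99024140-99024439 for Top2a, all on the minus strand, and chr13:51644982-51645281 for Cks2 on the plus strand. Each holds the upstream sequence and the first bases of the transcript. Counted from 0 at the RefSeq start, the CHR match closest to the start began at position 4 in Ccnb2 and at position -15 in Cdk1. GENCODE M21 starts Ccnb2 at base 70421547 and Cdk1 at base 69352938. Whether these matches lie within the transcript therefore depends on the annotation. Top2a had CHR matches at -179 and -23, and Mcm3 had E2F matches at 19 and 38.

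The libraries held 6371 CONV cells, 6981 CONV AsiDNA cells and 6267 FLASH cells, with median totals of 3450, 3678 and 3621 adjusted counts per cell. Adjusted counts are the whole numbers that the deposited natural log values give back, and their totals per cell span only 1432 to 8462. Since the adjustment behind them is not stated, no counting error was attached to a level. The median share of mitochondrial genes was 0.628%, 0.18% and 1.35%. A cell was placed in a class by marker genes, at least 3 of 8 above 0 and more than for any other class, and 98.2%, 98% and 97.5% of the cells were placed. The defining markers were present in the classes used most: in AM-like cells (alveolar macrophages) the median marker was above 0 in 95.7% to 99.6% of cells, in T-like cells in 80.9% to 85.2% and in cDC1-like cells (type 1 conventional dendritic cells) in 88.2% to 90.3%. The least frequent marker was above 0 in 28.1%, 57.9% and 70.1% of AM-like cells. For T-like cells it stood at 54.1%, 55.1% and 52.9%, and for cDC1-like cells at 10.9%, 21.5% and 25.5%. Cells with markers of 2 compartments made up 1.55% to 1.65% of a library. Brackets hold exact 95% bounds by the Clopper-Pearson method, which allow for the number of cells of 1 mouse and not for the spread between mice.

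The G2M set split the cells into a large group with few or none of its genes and a small group with many. Of the 19619 cells, 15060 had none of the 22 genes above 0, 4183 had 1 to 3, 68 had 4 to 10 and 308 had 11 or more. A cell with 4 or more was called G2M-high, and 376 cells (1.92%) were. At the threshold itself there were 43 cells with 3 genes, 16 with 4 and 10 with 5. The S set had no such separation at the threshold, with 425 cells at 3 genes, 124 at 4 and 55 at 5, and its 511 S-high cells (2.6%, again 4 or more genes) are therefore a range rather than a separate group. Of the 597 cells that were high for either set, 290 were high for both, 221 for the S set only and 86 for the G2M set only.

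**Figure D1:**
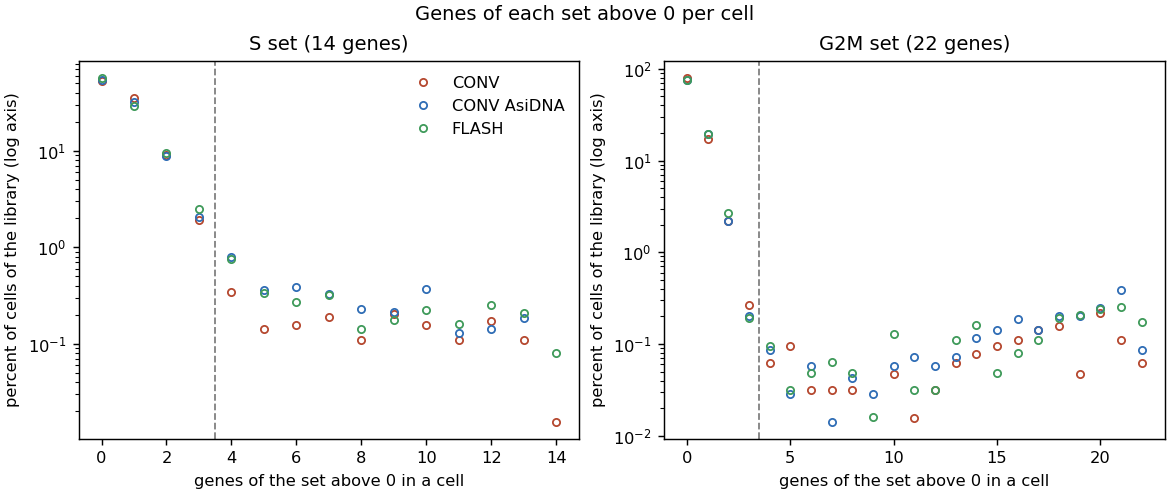
Percent of the cells of each library (log axis) by the number of S genes (left, of 14) and G2M genes (right, of 22) above 0 in the cell, with the threshold of 4 genes as a dashed line. The G2M counts fall to a trough between 4 and 10 genes and rise again to a group of 308 cells with 11 or more, while the S counts fall to a low tail with no such separate group.

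Dividing cells were least frequent in the CONV library. G2M-high cells made up 1.43% of CONV cells (91 of 6371, 1.15 to 1.75), 2.22% of CONV AsiDNA cells (155 of 6981, 1.89 to 2.59) and 2.07% of FLASH cells (130 of 6267, 1.74 to 2.46). S-high cells followed the same order, at 1.71% (109 cells, 1.41 to 2.06), 3.14% (219 cells, 2.74 to 3.57) and 2.92% (183 cells, 2.52 to 3.37). For the S set the CONV interval lay below both others, and for the G2M set it lay below that of CONV AsiDNA and just overlapped that of FLASH. CONV AsiDNA and FLASH overlapped for both sets. High cells had deeper profiles, with a median of 4912 adjusted counts in the G2M-high cells of CONV against 3440 in cells high for neither set. With every cell thinned to 1500 adjusted counts, which left out 6 FLASH cells, the G2M-high shares were 1.18%, 2.02% and 1.85% and the S-high shares 0.863%, 1.46% and 1.28%, in the same order. At this equal depth the S-high bounds of CONV (0.651 to 1.12) and FLASH (1.01 to 1.59) overlapped. Leaving out the 6% of cells with the highest doublet scores took 44%, 29.7% and 24.6% of the G2M-high cells and left shares of 0.852%, 1.66% and 1.66%, again lowest in CONV.

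The shares ranged more widely between classes than between libraries. Pooled over libraries, 33.1% of cDC1-like cells (101 of 305), 10.5% of cDC2-like cells (41 of 391), 2.51% of T-like cells (90 of 3587) and 2.44% of AM-like cells (53 of 2170) were G2M-high. At the low end stood B-like cells with 0.293% (12 of 4102), fibroblast-like cells with 0.269%, ciliated-like cells with 0.196%, neutrophil-like cells with 0.113% (1 of 882) and AT1-like and SMC-like cells with none of 311 and none of 130. The S-high counts of cDC1-like cells equalled the G2M-high counts, 101 of 305 overall and also within each library, but these were not the same cells: in CONV 5 of the S-high cDC1-like cells were not G2M-high.

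The spread between libraries depended on the class. Of the cDC1-like cells, 39.1% (18 of 46, 25.1 to 54.6), 35.6% (53 of 149, 27.9 to 43.8) and 27.3% (30 of 110, 19.2 to 36.6) were G2M-high, so the intervals overlapped and CONV was the highest. For T-like cells the shares were 2.29%, 2.53% and 2.75%, with overlapping intervals. For AM-like cells they were 1.76% (18 of 1021, 1.05 to 2.77), 2.99% (20 of 668, 1.84 to 4.59) and 3.12% (15 of 481, 1.76 to 5.09), again overlapping. S-high AM-like cells stood at 2.84% (1.91 to 4.05), 5.69% (4.06 to 7.72) and 6.24% (4.25 to 8.78), with CONV just below both others. Thinned to 1500 adjusted counts these S-high shares were 1.27% (0.68 to 2.17), 2.25% (1.26 to 3.68) and 2.49% (1.3 to 4.32), all overlapping. IM-like cells (interstitial macrophages) ran in the other direction for the G2M set, with 6 of 459, 2 of 434 and 1 of 329 cells. Their bounds, in percent, were 0.481 to 2.82, 0.0559 to 1.65 and 0.0077 to 1.68, all overlapping. Without the cells of highest doublet score the G2M-high shares of AM-like cells fell to 0.516%, 0.162% and 1.36%, and CONV was then no longer the lowest. These cells are a fixed top share by score and not called doublets. The classes were not equally represented: cDC1-like cells made up 0.722%, 2.13% and 1.76% of the libraries. The dendritic classes together supplied 25.3%, 47.7% and 35.4% of the G2M-high cells. With the class shares of each library weighted by the class mix of the 3 libraries together, the G2M-high share was 1.74%, 2.06% and 2.02%, and the S-high share 1.98%, 3.04% and 2.98%. Without the cDC1-like cells the G2M-high shares were 1.15% (0.906 to 1.45), 1.49% (1.22 to 1.81) and 1.62% (1.32 to 1.97), all overlapping, and the S-high shares 1.44%, 2.43% and 2.48%, a comparison added after the data had been seen. How many cells of a class were recovered from the tissue cannot be told apart from how many the lung held.

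**Figure D2:**
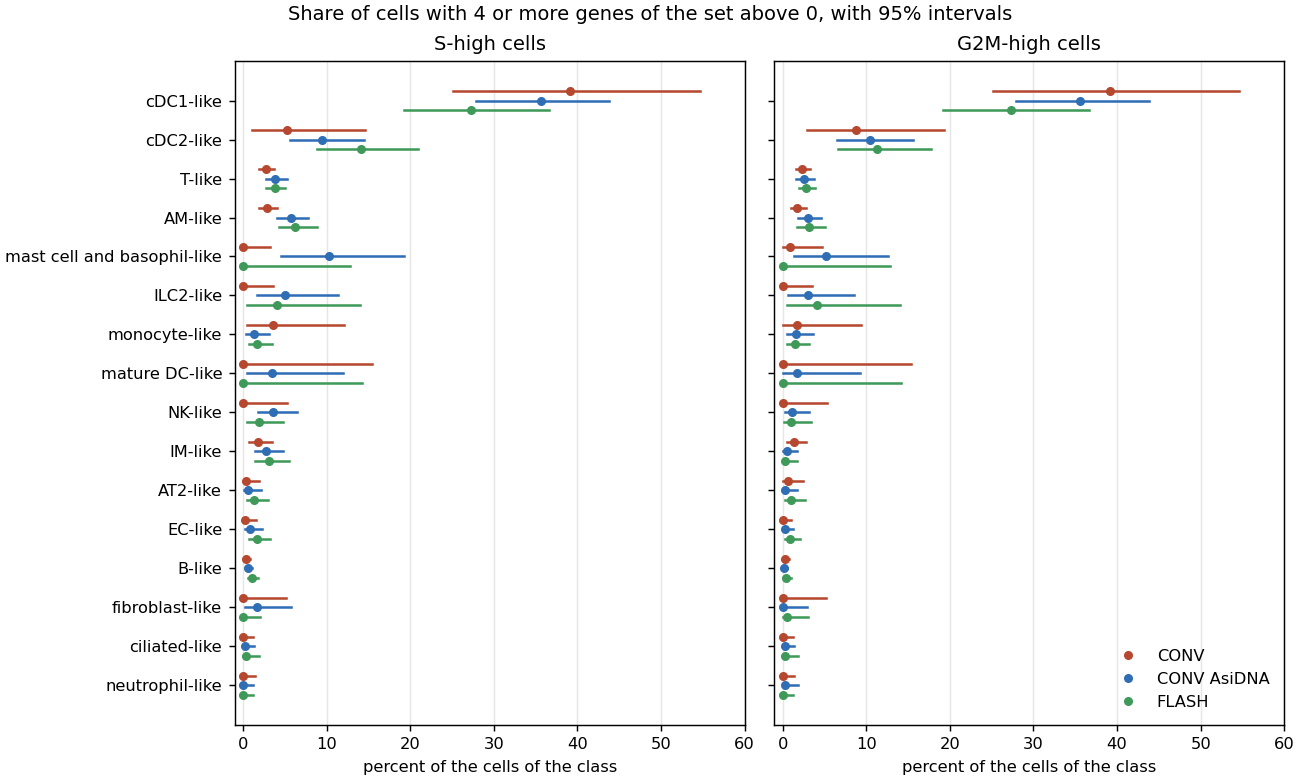
Share of S-high (left) and G2M-high (right) cells in each marker-gated class, in percent of the cells of the class, with points for the 3 libraries and bars for exact 95% intervals over cells. cDC1-like cells stand at 27.3% to 39.1% in every library and cDC2-like cells at 8.77% to 11.3% for the G2M set, while neutrophil-like cells stand near 0.

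Of the replication genes, those found in the most cells were Pcna, Mcm7, Mcm6, Mcm4, Mcm3 and Rrm1. Pcna, the sliding clamp of the DNA polymerases, was above 0 in 25.2%, 22.1% and 20.2% of cells, and its level over all cells was 95.1, 87.5 and 78.7 adjusted CPM (adjusted counts of the gene over those of the library, scaled as CPM). It was highest in CONV, against the order of the dividing cells. In AM-like cells, which made up 16%, 9.57% and 7.68% of the libraries, Pcna stood at 179, 193 and 201 and was lowest in CONV. Of the subunits of the MCM helicase, Mcm2 was nearly level at 12, 11.7 and 11.8, and the others were lowest in CONV. Mcm7 stood at 36.3, 48.7 and 45.3 adjusted CPM, Mcm6 at 27.6, 30.1 and 34.2, Mcm4 at 18.1, 22.7 and 26.4, and Mcm3 at 23.3, 25.2 and 29.6. Rrm1, the large subunit of ribonucleotide reductase, was level at 21, 21.9 and 20.5, while Rrm2, the small subunit, stood at 7.57, 13.9 and 11.5. Cdc6, which loads the helicase, was the scarcest S gene, with 21, 36 and 44 cells above 0. The remaining S genes, Mcm5, Tyms, Gins2, Uhrf1 and Clspn, lay between 3.51 and 12.9 adjusted CPM in the 3 libraries. In all, 11 of the 14 S genes were lower in CONV than in CONV AsiDNA and 11 lower than in FLASH, and of all 17723 genes tested 10499 and 9796 were.

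Of the mitotic genes, Cenpa, Cks2, Kif23, Top2a, Mki67, Tpx2, Birc5 and Nusap1 were found in the most cells. Top2a, the topoisomerase that untangles sister chromatids, stood at 40.8, 64 and 69.3 adjusted CPM. Mki67, the coat protein of mitotic chromosomes, stood at 30, 42.9 and 45.2. Cks2, a small partner of the cyclin-dependent kinases, stood at 32.2, 55.8 and 58.5. Each of these had its lowest value in CONV and values within 0.11 on the log2 scale of each other in CONV AsiDNA and FLASH. Kif23, a kinesin of the midbody, stood at 19.8, 27.2 and 29, Tpx2, a spindle assembly factor, at 7.7, 13 and 12.7, Birc5 (survivin) at 13.3, 19.7 and 18.3, and Nusap1, which binds spindle microtubules, at 14.4, 24.6 and 23.7. Cenpa, the histone H3 of the centromere, differed least of these 8, at 39.7, 43.9 and 40.7. The cyclin B genes and Cdc20, an activator of the anaphase promoting complex, also differed little: Ccnb1 stood at 5.9, 6.48 and 5.65, Ccnb2 at 10.5, 11.3 and 12.7 and Cdc20 at 6.82, 7.73 and 6.54. The other 11 G2M genes lay between 1.88 and 25.9. They are the kinases Cdk1, Aurka, Aurkb, Bub1 and Plk1, the cyclin Ccna2, the ubiquitin enzyme Ube2c, the kinetochore proteins Cenpe and Cenpf, the spindle motor Kif11 and the spindle protein Hmmr. All 11 were lowest in CONV. Over the whole set, 22 of 22 genes were lower in CONV than in CONV AsiDNA, and 20 of 22 were lower than in FLASH. The exceptions against FLASH were Ccnb1 and Cdc20. Of all 17723 genes tested, 10499 and 9796 were lower in CONV. None of the 36 genes was listed at 0 in a library.

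On the log2 scale of adjusted CPM plus 1, the G2M set had a median of -0.61 for CONV over CONV AsiDNA, with 22 of 22 genes below 0, and of -0.57 for CONV over FLASH, with 20 of 22 below 0. These comparisons share the CONV library. The S set had medians of -0.26 and -0.33. Over all 17723 genes with a sum of at least 20 the medians were -0.08 and -0.05. Between CONV AsiDNA and FLASH the medians were 0.04 for the G2M set, 0.02 for the S set and 0.02 for all genes. Not one of the 36 genes was 2-fold above or below both other libraries, in any library. Of all genes, 0.925% were so far above and 1.29% so far below in CONV, 0.0846% and 0.079% in CONV AsiDNA, and 0.175% and 0.254% in FLASH. At 1.5-fold, a threshold added after the data were seen, 8 of 22 G2M genes and 0 of 14 S genes were below both others in CONV, against 5.37% of all genes. They were Top2a, Ube2c, Bub1, Tpx2, Nusap1, Kif11, Hmmr and Cks2. With class levels weighted by a common class mix, the G2M medians for CONV were -0.30 and -0.35. The S median for CONV over CONV AsiDNA was then -0.07, next to -0.04 for all genes.

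**Figure D3:**
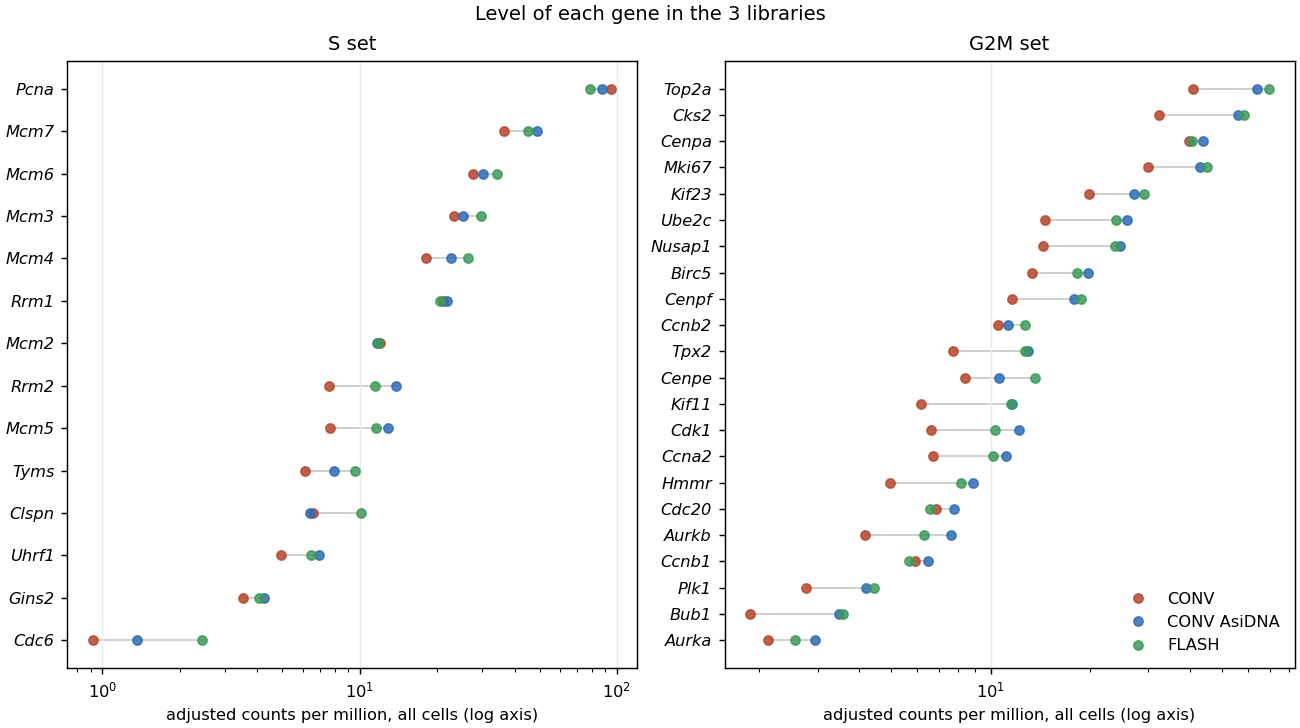
Level of each of the 14 S genes (left) and 22 G2M genes (right) over all cells of a library, in adjusted CPM on a log axis, 1 point for each library and a grey line over their range. CONV is the lowest point for most G2M genes, Top2a at 40.8 against 64 and 69.3, while Pcna is highest in CONV.

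Among G2M-high cells of all classes the mean adjusted count of Mki67 was 7.26, 7.05 and 7.83, and that of Birc5 was 3.42, 3.34 and 3.26. Ccna2, the cyclin of S and G2, had means of 1.76, 1.89 and 1.84. Top2a had means of 9.58, 10.7 and 12.1, with medians of 10, 10 and 12. Ccnb1 ran the other way, with means of 1.45, 1.1 and 0.977, and so did Cdc20, with 1.48, 1.26 and 1.12. In the AM-like cells among them the libraries stood further apart, with Top2a means of 5.44, 10.3 and 15.8, Nusap1 means of 1.44, 3.4 and 5.13 and Mki67 means of 6.5, 5.35 and 12.8, over 18, 20 and 15 cells. These cells were chosen by the same genes, so the values describe them and test nothing.

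Nearly all RNA of most G2M genes sat in the dividing cells. For each gene the cells were counted as dividing by 4 or more of the other G2M genes, and the median gene had 95.4% of its summed adjusted counts there. For 18 of the 22 the share was 80% or more, up to 100% for Hmmr, 99.9% for Ccna2 and 99.2% for Nusap1. Birc5 was above 0 in 90.3% of dividing cells and in 0.0727% of the others, and Mki67 in 95.6% and 0.545%. Of the 4 exceptions, Aurka, a mitotic kinase, had 73% of its sum in dividing cells, Kif23 42%, Cenpa 29.9% and Cks2 26.1%. The S genes were spread more widely: the median S gene had 38.2% of its sum in these dividing cells and 42.8% in cells with 4 or more other S genes above 0. Rrm2 was the exception, with 97.6% of its sum in the cells chosen by the G2M genes and 14 other cells above 0. Pcna was the widest, with 14.6% of its sum in dividing cells and 21.7% of the other cells above 0.

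**Figure D4:**
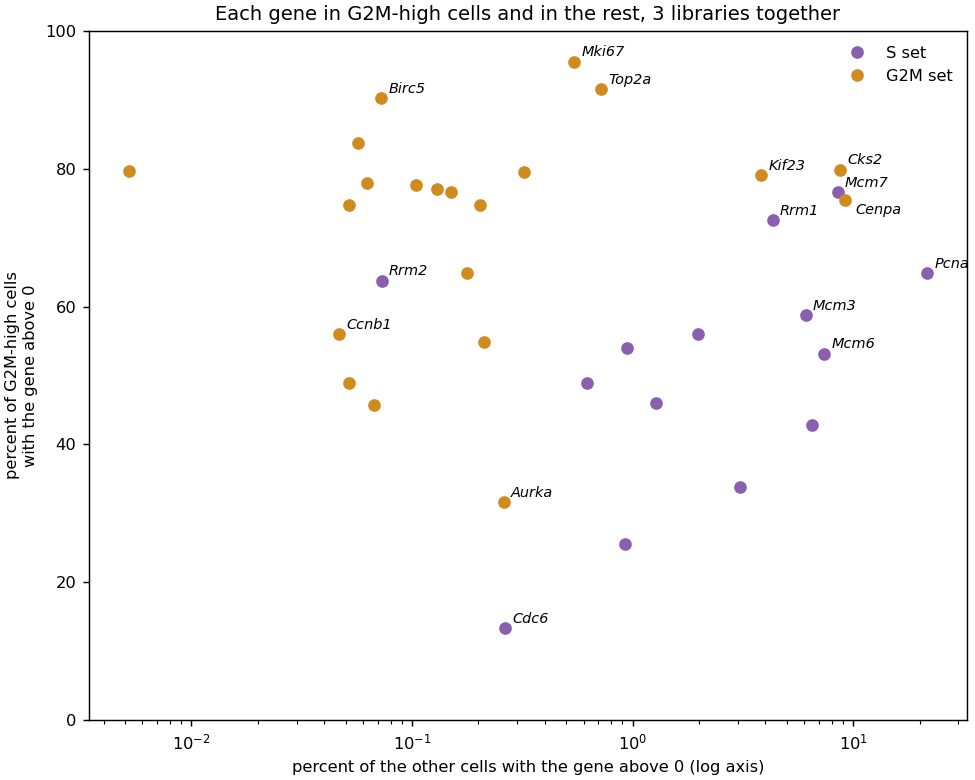
Percent of G2M-high cells with a gene above 0 (vertical axis) against percent of all other cells with it above 0 (log horizontal axis), the 3 libraries together, 1 point for each S gene (purple) and each G2M gene (orange), with a gene's own value left out of the count. Hmmr, with no other cell above 0, has no place on the log axis. Most G2M genes lie below 1% outside dividing cells, and Kif23, Cks2 and Cenpa lie among the S genes at 3.83% to 9.14%.

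The classes in which Pcna, Kif23, Cks2 and Cenpa were found differed in part. Pcna was above 0 in 60.9% of AM-like cells, most of them not dividing, followed by cDC1-like cells with 36.4% and NK-like cells with 29.8%, and in 0.113% of neutrophil-like cells. AM-like cells were deeper, and outside division at 1500 adjusted counts Pcna was above 0 in 22.2%, 19.8% and 18.5% of AM-like cells against 7.35%, 18.1% and 16.6% of NK-like cells, overlapping in CONV AsiDNA and in FLASH. Kif23 was above 0 in 40.9% of neutrophil-like cells (361 of 882), although 1 of these cells was G2M-high, and next in 33.1% of cDC1-like and 30.9% of mast cell and basophil-like cells. This order is that of the libraries together. In CONV alone, Kif23 was found slightly more often in mast cell and basophil-like than in neutrophil-like cells. In neutrophil-like cells with fewer than 4 other G2M genes it was found in 36.5%, 40.5% and 45.1%, and Birc5 in none of 266, 311 and 304. Neutrophil-like cells were shallow, with a median of 2782 adjusted counts in CONV against 5221 in AM-like cells. Cks2 was above 0 in 35.9% of mast cell and basophil-like, 35.6% of monocyte-like and 26.6% of neutrophil-like cells of the 3 libraries together, an order that did not hold in CONV, where the first of these stood at 20%, monocyte-like cells at 36.8% and neutrophil-like cells at 21.4%. Cenpa was above 0 in 22% of cDC1-like, 19.5% of B-like and 16.7% of T-like cells and in 0.0979% of ciliated-like cells. Classes with few dividing cells gave no single level of background. Cks2 was above 0 in 0, 1 and 0 of 375, 455 and 479 EC-like (endothelial) cells outside division and Kif23 in 1, 2 and 0. In ciliated-like cells of the libraries together, of which 0.196% were G2M-high, Cks2 was above 0 in 5.68% and Kif23 in 2.45%. Among the classes with at least 20 cells in every library, 33 of the 36 genes had their highest share in cDC1-like cells, and the exceptions were Pcna, Kif23 and Cks2. This ranking pooled the libraries without thinning, and it was not made for all genes. The cDC1-like cells were deeper, with medians of 4751, 4463 and 4445 adjusted counts against 3450, 3678 and 3621 in all cells. How many other genes rank highest there is not known. Plasma-like cells, with 9 cells in all, were too few to rank, and 3 of the 9 were G2M-high.

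In AM-like cells Cks2 and Kif23 differed between the libraries outside dividing cells as well. Cks2 was above 0 in 5.88% (59 of 1003, 4.51 to 7.52), 22.8% (148 of 648, 19.7 to 26.3) and 30.7% (143 of 466, 26.5 to 35.1) of the AM-like cells that were not dividing. The 3 intervals did not overlap. Thinned to 1500 adjusted counts per cell, the shares were 1.99%, 9.26% and 10.7%, with CONV still below both others and the other two overlapping. Kif23 was listed at 0 in all 1003 CONV cells and was above 0 in 28 of 648 CONV AsiDNA cells (4.32%) and 18 of 466 FLASH cells (3.86%). After thinning, Kif23 stood at 0% (0 to 0.367), 0.926% (0.341 to 2) and 1.5% (0.606 to 3.07), and the bounds of CONV and CONV AsiDNA overlapped. Cenpa stood at 4.28%, 2.78% and 2.15%, with overlapping bounds. Cks2 values were low in each cell, at most 2 in CONV and 3 in the others. In T-like cells outside division Cks2 was above 0 in 8.92%, 8.5% and 11.4%, and in monocyte-like cells in 35.7%, 34.4% and 35%, so CONV was not below both others in those classes. It was below both in B-like cells, at 3.13%, 4.26% and 4.77%, in IM-like cells, at 3.53%, 6.94% and 7.32%, and in NK-like cells, with 0 of 68 cells against 7.97% and 7.58%, but with overlapping bounds in all 3 classes. In mast cell and basophil-like cells outside division Cks2 was above 0 in 19.3% of 114, 47.3% of 74 and 63% of 27. Exact zeros over a class in some libraries and not in others also occurred elsewhere. Kif23 was above 0 in 37.4% and 32.1% of mast cell and basophil-like cells and in none of the 27 of FLASH, and Cdkn1a in 37 of 1398 T-like cells of CONV and in none of 990 and 1199 in the others. The sources used here do not state how the authors adjusted the values, and the part of that step in these shares was not tested.

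The AM-like class also held macrophages of unlike state. Gpnmb, a glycoprotein of lipid-laden macrophages, was above 0 in 69.1%, 37.4% and 47.8% of AM-like cells. Cks2 was found less often in CONV in both parts. Among non-dividing cells with Gpnmb above 0 it was above 0 in 5.41%, 19.5% and 32.3%, and among those with Gpnmb at 0 in 6.98%, 24.8% and 29.2%. Kif23 was at 0 in CONV in both. G2M-high cells made up 0.567%, 3.6% and 1.74% of the AM-like cells with Gpnmb above 0 and 4.44%, 2.63% and 4.38% of those with Gpnmb at 0. Split in this way, the CONV library was lowest for dividing cells only among cells with Gpnmb above 0, with 4, 9 and 4 such cells in the 3 libraries. The split was made after the data were seen.

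Over all AM-like cells, dividing ones included, 10 of 22 G2M genes and 4 of the 13 S genes with a sum of at least 20 in this class were 2-fold below both others in CONV, against 8.08% of 9500 genes, and none was 2-fold above both, against 3.41%. The G2M genes were Top2a, Birc5, Ube2c, Cdk1, Aurka, Aurkb, Nusap1, Kif11, Kif23 and Cks2, and the S genes Mcm7, Tyms, Rrm2 and Clspn. The sum was taken over the 3 libraries, so a gene scarce in CONV could reach 20 through the others. Aurka, with a sum of 22, stood at 0.76, 3.35 and 2.95 adjusted CPM, and Clspn, with a sum of 40, at 1.33, 3.95 and 8.43. The counts therefore describe these cells and test nothing. Cks2 stood at 18.3, 70 and 95.6 adjusted CPM, Top2a at 18.6, 62.7 and 99.9, Rrm2 at 7.6, 35.9 and 30.8 and Mcm7 at 14.1, 38.9 and 34.1. Pcna stood at 179, 193 and 201. The class held 18, 20 and 15 G2M-high cells, and Top2a was above 0 in 9 of 18, 20 of 20 and 15 of 15 of these cells. Cks2 was also found outside these cells, as given above. The calls were not repeated without the 6% of cells with the highest doublet scores, where the G2M-high shares of the class were 0.516%, 0.162% and 1.36%. Mki67, Cenpf, Tpx2 and Hmmr were 2-fold above both others in FLASH in these cells, against 0.916% of genes.

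In T-like cells, where all 36 genes reached a sum of 20, 0 of 36 were 2-fold below both others in CONV, against 2.93% of 10059 genes. Hmmr was 2-fold below CONV AsiDNA only, at 7.3, 19.9 and 12.1 adjusted CPM. Other classes held few dividing cells, with 4, 3 and 5 G2M-high cells among B-like, 6, 2 and 1 among IM-like, 2, 1 and 4 among AT2-like (the surfactant-making epithelium) and 0, 1 and 4 among EC-like cells. Many of the genes did not reach a sum of 20 there, or reached it through the library in which they were high, so members past 2-fold are not counted for these classes.

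**Figure D5:**
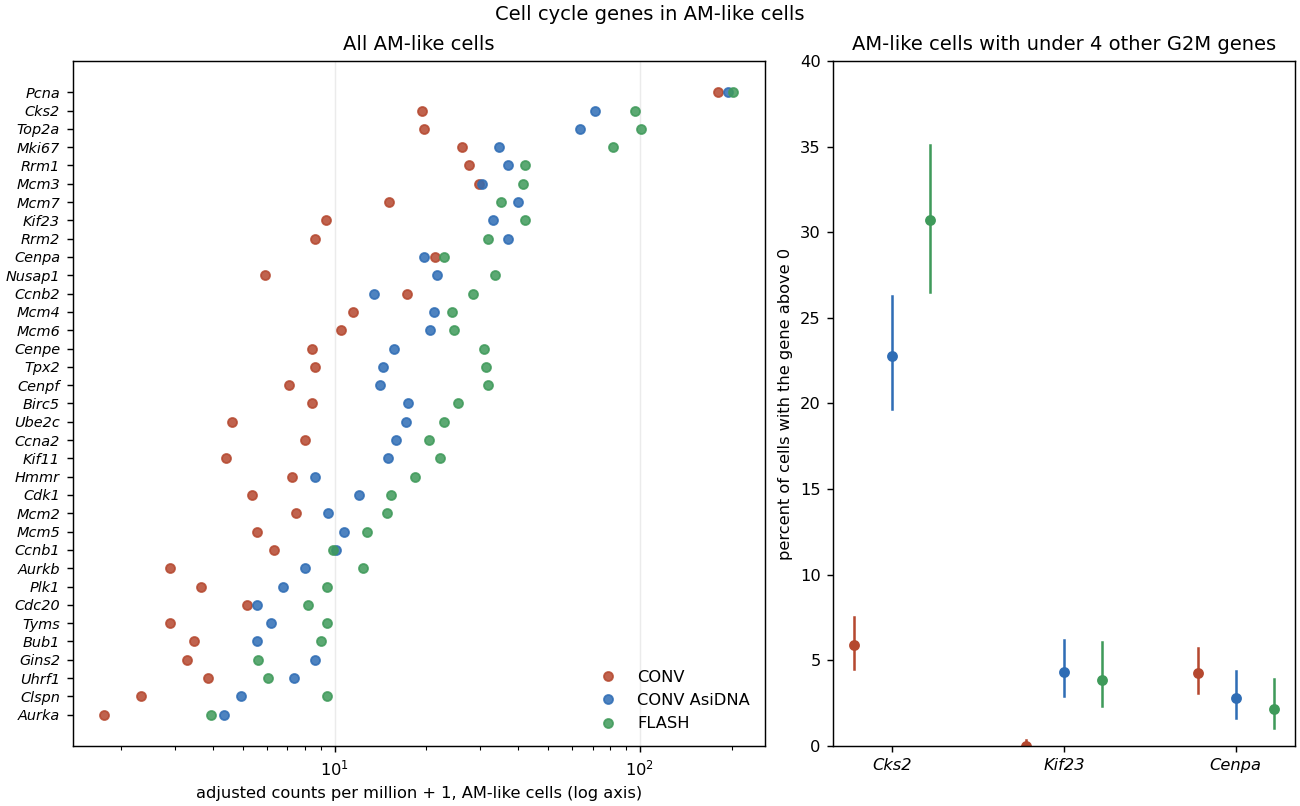
Left, level of the 35 genes tested in AM-like cells in adjusted CPM plus 1 on a log axis, 1 point for each library. Right, percent of AM-like cells with fewer than 4 other G2M genes that had Cks2, Kif23 or Cenpa above 0, with exact 95% intervals over cells: Cks2 stands at 5.88%, 22.8% and 30.7%, while Kif23 is at 0 in CONV.

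The genes upstream of the cycle were read for comparison. Among 15 cyclins, kinases and E2F or Rb genes of G1, 2 were 2-fold below both others in CONV, against the 1.29% given above: Ccnd1 (cyclin D1), at 77.4, 178 and 167 adjusted CPM, and E2f2, at 6.32, 15.7 and 14.2. Of 19 other replication and mitosis genes none was 2-fold away from both others, and 6 were 1.5-fold below both others in CONV, against the 5.37% of all genes given above. None of the 7 inhibitors of cyclin-dependent kinases was past 2-fold of both others. Cdkn1a (p21), the target of p53, stood at 346, 331 and 356 and was above 0 in 32.4%, 27.4% and 25.6% of cells. Cdkn1b (p27) stood at 124, 149 and 178, Cdkn1c (p57) at 16.4, 24.4 and 20.7, Cdkn2b (p15) at 8.33, 8.45 and 8.64, Cdkn2c (p18) at 16, 12.1 and 13.9 and Cdkn2d (p19) at 39.5, 60.6 and 58.7. Cdkn2a (p16 and p19Arf), a gene of senescent cells, stood at 13.3, 7.76 and 5.17 and was 1.5-fold above both others in CONV, as were 3.36% of all genes. In AM-like cells Cdkn2a was above 0 in 8.13%, 4.49% and 5.2%. The inhibitors differed in how far they were found in dividing cells. Cdkn2b was above 0 in 0, 1 and 0 G2M-high cells and Cdkn1c in 2, 3 and 0. Cdkn2a was above 0 in 7.69%, 4.52% and 5.38% of G2M-high cells against 2.4%, 1.38% and 0.978% of the others. Cdkn2c was above 0 in 38.5%, 50.3% and 41.5% of G2M-high cells against 4.76%, 2.89% and 3.6% of the others, and Cdkn1a in 30.8%, 31% and 17.7% against 32.5%, 27.4% and 25.7%.

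By annotation 15 of the 36 genes overlap another gene, 6 of them a gene that is also listed in these data: Mcm7 overlaps Cops6 and Ap4m1, Gins2 overlaps Gse1, Ube2c overlaps Tnnc2, Ccna2 overlaps Exosc9, Cdc20 overlaps Elovl1 and Nusap1 overlaps Oip5, all on the opposite strand. Their values are less certain where reads of the pair could have been counted together. Kif23, Cenpa and Pcna overlap no other annotated gene, and Cks2 overlaps a small nucleolar RNA only.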

How the data were processed

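The genes, the lists and the alternatives were chosen with earlier results of these data known. Lungs were dissociated and run on the 10x Genomics droplet assay, and the submitters' processing notes name Cell Ranger 6.0.0 and mm10. Clustering by the authors used Seurat, per the study's methods. Each deposited table of 1 library holds values on a natural log scale, ln(1 + k), in which k came out whole for all entries. The plan had allowed for raw counts, but the values were already adjusted in a way not given in the sources used here, so no count model was fitted and an entry of 0 is called listed at 0. Cells with fewer than 200 genes above 0 were left out (3 of 19622). Barcodes shared between libraries numbered 16 for CONV and CONV AsiDNA, 9 for CONV and FLASH and 17 for CONV AsiDNA and FLASH.

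Classes, S-high and G2M-high cells were defined as given in the report (at least 3 of 8 markers, at least 1 more than the next class, and 4 genes of the set). Levels are sums over cells scaled as CPM, and log2 ratios used a pseudocount of 1 and genes with a sum of at least 20. Levels in each library were given for the 6 S and 8 G2M genes found in the most cells, for genes of all lists past 2-fold of both other libraries in all cells, and for the CDK inhibitors found in at least 100 cells. Other genes given with values were chosen after these were seen. Cells outside dividing cells had fewer than 4 other G2M genes. The only check of doublets in the main values was the count of cells with 3 markers of 2 compartments. Scrublet called 1, 2 and 2 cells and so did not work as a caller, and the 6% highest scores were left out as an alternative. Functions were tested on simulated data. Python 3.11.15, scipy 1.17.1 and scanpy 1.11.5 were used, and gene positions came from GENCODE M21. Another 12 columns of per-sample values belong to none of these samples, and 3 tables of the authors' own comparisons were not used. As 1 mouse stood for each condition, no test was made.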

Additional observations from a re-analysis of the deposited data

How the results depend on the processing

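Of the values that answer a comparison, 145 stayed within their interval or margin under an alternative and 29 moved, and no called value changed sign. The order of CONV AsiDNA and FLASH, whose bounds overlapped, did turn for the S-high share at 3 genes and for both shares without cDC1-like cells. The S-high share depended on the threshold. It was 3.64%, 5.21% and 5.43% (in the order CONV, CONV AsiDNA, FLASH) at 3 genes, 1.22%, 1.99% and 1.84% at 6 genes, and 0.863%, 1.46% and 1.28% after thinning to 1500 adjusted counts. Leaving out the 6% highest doublet scores gave S-high shares of 1.34% for CONV and 2.71% for CONV AsiDNA and G2M-high shares of 0.852%, 1.66% and 1.66%. The following alternatives were chosen after seeing the data. Without cDC1-like cells the CONV AsiDNA and FLASH shares were 2.43% and 2.48% (S-high) and 1.49% and 1.62% (G2M-high). Without Kif23, Cks2, Cenpa and Pcna in the sets the S-high shares of these libraries were 2.58% and 2.51%. At 1.5-fold, 8 genes of the 36 were below both others in CONV, as were 5.37% of all genes. At 2-fold none of the 36 was, against 1.29% of all genes.

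The median log2 ratio of CONV over CONV AsiDNA was -0.11 (S set) and -0.46 (G2M set) with a pseudocount of 5, -0.07 and -0.30 with a common class mix, and -0.13 and -0.45 without cDC1-like cells. That of CONV over FLASH for the G2M set was -0.40 with a pseudocount of 5 and -0.35 with a common class mix. With the common class mix the median of all genes was -0.04 for CONV over CONV AsiDNA, close to the -0.07 of the S set. In the shares over all cells CONV was lowest in each alternative printed here. Leaving out the highest doublet scores also removed dividing cells, and the common class mix reweighted the classes. The cause was not tested. Among the values of single classes 184 stayed and 32 moved, most of them S-high shares. With 1 mouse for each condition no alternative speaks to the spread between mice, and the depth before the authors' adjustment is unknown, so small shares carry bounds over cells only.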

Other observations

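The other cycle genes differed in how far they kept to G2M-high cells. Cdca3, a mitotic regulator, was above 0 in 83.5%, 81.9% and 76.2% of these cells and in 6, 0 and 1 of the rest, and Cdca8 (borealin) in 82.4%, 90.3% and 89.2% and in 11, 14 and 26 of the rest. Ccnd2 (29.7%, 43.9% and 40% of G2M-high cells against 33.5%, 40.5% and 37.7% of the rest) and Cdkn1b (30.8%, 40.6% and 44.6% against 31%, 35.4% and 38.5%) were found about as often in both. Ccne1 (cyclin E1), which starts replication, was above 0 in 16.5%, 23.9% and 20.8% of G2M-high cells of CONV, CONV AsiDNA and FLASH, against 0.446%, 0.864% and 0.44% of the rest. Cdkn2d (p19), an inhibitor of the cyclin D kinases, was above 0 in 48.4%, 67.7% and 56.9% of G2M-high cells against 10.5%, 15.8% and 16.3% of the rest.

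The AM-like cells with Cks2 above 0 outside division were as deep as those without it, with medians of 5218 against 5221 adjusted counts in CONV, 4953 against 5036 in CONV AsiDNA and 5071 against 4976 in FLASH. The share of these cells with 2 monocyte markers was 16.9% against 11.9% in CONV, 5.41% against 5.8% in CONV AsiDNA and 11.9% against 7.12% in FLASH.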
